A study of Mus musculus with 4 samples.

Results

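The nuclear-encoded subunits of respiratory complexes II to V were followed in heart RNA of 2 mouse models with an altered cardiac myosin binding protein C and of their controls. The members were the 4 subunits of succinate dehydrogenase (Sdha to Sdhd), Cyc1, the cytochrome c gene Cycs, Ndufa4, and every gene whose symbol begins with Uqcr, with Cox4 to Cox8 or with Atp5, pseudogenes left out. This gave 50 of the 25044 genes in the count tables: 4 of complex II, 9 of complex III, 1 for cytochrome c, 19 of complex IV and 17 of complex V. All mice were 12 weeks old, and each of the 4 groups is represented by a single poly(A) RNA library from a pool of 3 hearts. The hypertrophic (HCM) model is the cMyBP-CΔC10mut mouse, a transgenic carrying the 25-bp variant MYBPC3 (dC10mut below), and is set against nontransgenic mice (NTG); C57BL/6 is the strain label of this HCM pair. The dilated (DCM) model is the cMyBP-C(t/t) mouse (tt), set against mice labelled only as control; FvB/N is the strain label of this DCM pair. The transgene's promoter and the sex of the mice are not stated in the labels.

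These complexes sit in the inner mitochondrial membrane. Complex II takes electrons from succinate and passes them to ubiquinone, complex III moves them on to cytochrome c, complex IV (cytochrome c oxidase) reduces oxygen, and complex V (ATP synthase) uses the proton gradient to make ATP. Heart muscle makes most of its ATP this way, and it uses muscle isoforms of several complex IV subunits, Cox6a2, Cox7a1 and Cox8b, beside the ubiquitous isoforms Cox6a1, Cox7a2 and Cox8a. The mitochondrially encoded subunits of complexes III, IV and V were not analysed here.

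The promoters of the Cox7a and Cox8 isoform pairs are shown because both genes of the Cox7a pair moved alike in these libraries (below), and because Cox8b was more than 2-fold higher in dC10mut. Each sequence runs 5′ to 3′ on the strand of the gene, from 250 bases before the annotated start to 50 after it, from RefSeq on GRCm38.p6. The windows are chr7:30183921-30184220 (plus strand), chr9:79759804-79760103, chr7:140900397-140900696 and chr19:7217567-7217866 (minus strand). Capitals mark matches on either strand to 1 of 7 short motifs: the NRF1 core, the ETS core (CCGGAAG), the YY1 motif (AAGATGGCG), the ERR half-site (TCAAGGTCA), the MEF2 core, the Sp1 box (GGGCGG) and the TATA box (TATAAA). A stretch under overlapping matches is capitalised once.
Cox7a1: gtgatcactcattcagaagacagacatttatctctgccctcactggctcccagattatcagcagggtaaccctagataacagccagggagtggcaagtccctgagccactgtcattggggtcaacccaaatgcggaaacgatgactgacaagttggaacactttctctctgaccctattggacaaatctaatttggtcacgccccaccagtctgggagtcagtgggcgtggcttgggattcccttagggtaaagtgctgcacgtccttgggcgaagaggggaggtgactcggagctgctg
Cox7a2: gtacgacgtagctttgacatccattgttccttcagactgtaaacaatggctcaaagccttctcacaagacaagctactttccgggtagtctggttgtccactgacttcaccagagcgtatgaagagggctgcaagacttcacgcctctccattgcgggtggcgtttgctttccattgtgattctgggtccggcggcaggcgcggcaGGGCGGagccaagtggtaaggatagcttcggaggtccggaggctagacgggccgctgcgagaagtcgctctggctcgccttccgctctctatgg
Cox8b: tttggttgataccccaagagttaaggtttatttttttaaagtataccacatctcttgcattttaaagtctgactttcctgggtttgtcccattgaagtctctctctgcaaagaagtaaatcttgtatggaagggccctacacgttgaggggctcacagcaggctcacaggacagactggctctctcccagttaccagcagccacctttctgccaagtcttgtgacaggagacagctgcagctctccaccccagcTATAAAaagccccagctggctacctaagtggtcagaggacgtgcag
Cox8a: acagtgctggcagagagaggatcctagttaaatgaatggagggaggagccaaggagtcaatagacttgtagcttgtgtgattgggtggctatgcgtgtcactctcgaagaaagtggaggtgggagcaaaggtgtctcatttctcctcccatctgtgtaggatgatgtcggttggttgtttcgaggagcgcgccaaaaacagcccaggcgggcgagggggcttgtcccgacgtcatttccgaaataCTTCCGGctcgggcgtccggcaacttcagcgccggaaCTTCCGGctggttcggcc
The Cox7a1 window held none of these letters and the Cox7a2 window 1 Sp1 box. The Cox8b window held 1 TATA box, and the Cox8a window 2 ETS cores. RefSeq promoters were matched for 38 of the 50 members (41 windows). The NRF1 core was in 10 of these windows (24.4%) against 4.6% of 32851 promoters of the same length, and the ETS core in 13 (31.7%) against 8.86%. The Sp1 box was in 15 windows (36.6% against 35.7%), the TATA box in 4 (9.76% against 13.6%), the YY1 and ERR motifs in 2 each (4.88% against 1.4% and 0.423%) and the MEF2 core in 1 (2.44% against 3.69%). A match is a run of letters and says nothing about binding.

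The count tables were shallow, with between 170543 and 187365 counts per library, and 1 read was worth 5.19 to 6.24 CPM (counts scaled to library size with TMM factors from edgeR, the normalisation used throughout). In all, 39 members held a count in a library, 10 of them never more than 9, and 11 held 0 counts in all 4 libraries. Counts were deposited per transcript, and most members at 0 were listed with several: of the 15 members with more than 1 transcript 9 were at 0 and 1 (Atp5k) reached 10 counts in every library, against 2 and 25 of the 35 members listed with 1. Over all genes, 19.8% of those with several transcripts and 45.4% of those with 1 held a count. Sdhb, the iron-sulfur subunit of complex II, Cox4i1 (1 count in tt and 0 in the other libraries), Cox7a2l, a supercomplex factor, Atp5c1, the central stalk subunit of ATP synthase, Atp5pb of its peripheral stalk, Atp5j, Atp5mpl, and the subunit c genes Atp5g1 and Atp5g3 belong to this class. Their counts cannot be read as absence of expression. The pair Cox4i1 and Cox4i2 could not be compared for the same reason: Cox4i2, the isoform known from lung, held 1, 0, 1 and 1 counts in NTG, dC10mut, control and tt. The third subunit c gene, Atp5g2, held 2, 0, 1 and 1. Cox7b2 and Cox8c, 2 testis isoforms listed with 1 transcript each, held 0 counts in every library, as did the testis isoform Cox6b2, which is listed with several. By counting error alone, a count of 0 allows up to 3 counts, or between 15.6 and 18.7 CPM. For members listed with several transcripts this is no upper limit on expression. All intervals below are 95% intervals of counting error alone, since with 1 library per group no difference has a replicate check, and copies of a read made by PCR are not independent.

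The library kit keeps the strand, but how the counting used it is not given. At the Xist locus the row of Tsix, the antisense transcript, held 147 counts in dC10mut and 159 in tt against 8 and 14 in the row of Xist, and at the creatine kinase gene Ckm the opposite-strand row A930016O22Rik held between 5781 and 7272 counts against 290 to 432 for Ckm. A member shows the same: Pdzd9, whose exons lie opposite 504 bases of Uqcrc2, held 419, 381, 481 and 371 counts, and Uqcrc2 113, 194, 154 and 163. These loci were chosen after their values were seen; such a pattern is that of a stranded kit counted with the opposite setting, which was not tested. Genes with an opposite-strand exon were 20.3% of all genes and held between 65.7% and 69.3% of the counts of a library. The counts of a member therefore cannot be read with certainty as its mRNA, and those of the 11 members with an exon opposite another gene are uncertain. The Xist locus (Xist and Tsix together) held 155 and 173 counts in dC10mut and tt and 0 in NTG and control, so that sex and model cannot be told apart in either pair.

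Summed over all members, the scaled counts of NTG, dC10mut, control and tt were 17840, 22350, 18470 and 18630 CPM. The sum was thus higher in dC10mut than in NTG (log2 ratio 0.33, interval 0.26 to 0.39), and similar in tt and control (0.01, -0.06 to 0.08). Of the 24 members that reached 50 counts in a library, 19 had their highest scaled count in dC10mut and 12 their lowest in NTG. Per kilobase of transcript, Atp5b (1805 to 1993 CPM per kb over the 4 libraries), Uqcrh (1206 to 2353), Cox7a1 (1317 to 2079), Ndufa4 (1298 to 2048) and Cox7b (1136 to 1446) had the highest peak levels, although in tt Atp5a1, at 1246, stood above Uqcrh and Cox7b. Among members with at least 50 counts in a library, Sdhc was the lowest, at 61.0 to 84.2 CPM per kb. In pools of whole hearts, more RNA per cell and more cells of a type cannot be told apart.

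**Figure D1:**
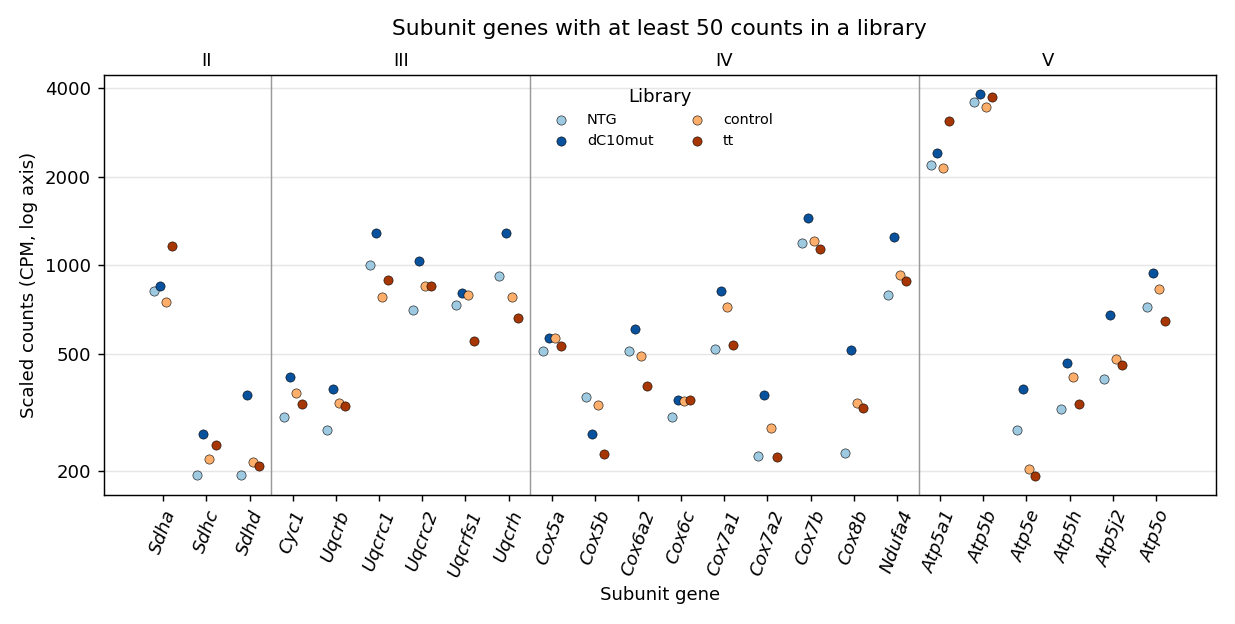
Scaled counts (CPM, log axis) of the 24 members with at least 50 counts in a library, grouped by complex; each point is 1 library. The point of dC10mut is the highest for 19 genes, and Sdha and Atp5a1 are highest in tt.

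Complexes III and IV were higher in dC10mut than in NTG, and complex IV was lower in tt than in control. The summed scaled counts of complex III were 4059, 5383, 4024 and 3666 CPM in NTG, dC10mut, control and tt (log2 ratio of dC10mut to NTG 0.41, 0.26 to 0.55; of tt to control -0.13, -0.29 to 0.02). Those of complex IV were 4726, 6344, 5355 and 4678 CPM (0.43, 0.29 to 0.56, and -0.20, -0.33 to -0.06). The sums of complex II and complex V were higher in both models, though in the DCM pair each rests on 1 gene: complex II held 1203, 1479, 1182 and 1615 CPM (0.30, 0.03 to 0.57, and 0.45, 0.20 to 0.71), and complex V 7762, 9051, 7829 and 8625 CPM (0.22, 0.12 to 0.33, and 0.14, 0.04 to 0.24). Sdha made up 65.3% of the complex II counts. Without Sdha the complex II log2 ratio was 0.70 (0.25 to 1.17) for dC10mut against NTG and 0.06 (-0.40 to 0.52) for tt against control. Without Atp5a1 the complex V ratio of tt to control was -0.04 (-0.16 to 0.09), an alternative chosen after seeing the data, and without the members that have an opposite-strand exon, Atp5a1 among them, it was 0.04. Of the 8 complex V members with at least 10 counts in the DCM pair, 6 were negative, with a median of -0.16. NTG and control, the 2 libraries without a model, differed for complex IV (log2 ratio of control to NTG 0.18, 0.04 to 0.32), and their intervals spanned equality for complexes II, III and V.

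**Figure D2:**
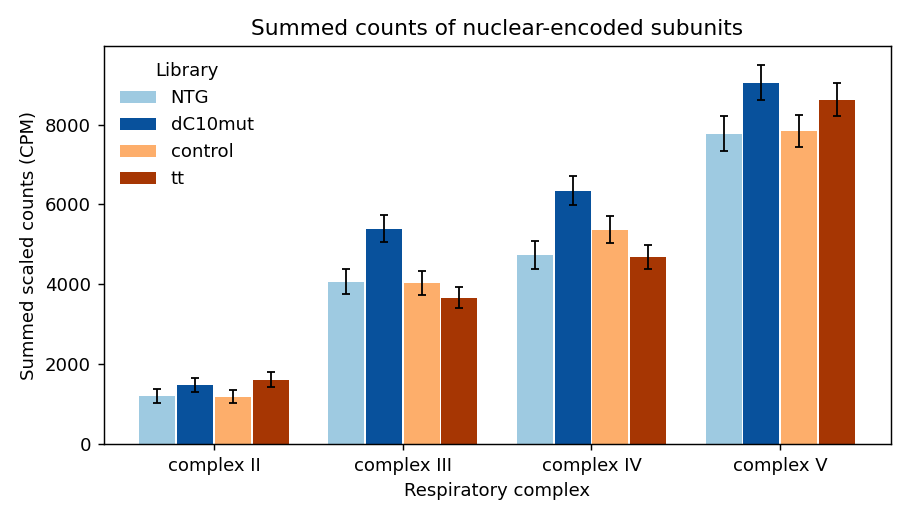
Summed scaled counts (CPM) of the members of each complex in the 4 libraries; bars are single libraries and error bars exact 95% Poisson intervals, which cover counting error only. Complexes III and IV are highest in dC10mut, at 5383 and 6344 CPM, and complex II is highest in tt, at 1615 CPM.

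The HCM pair bears on how hearts carrying the variant differ from nontransgenic ones. Its subunits were higher in dC10mut almost throughout, by modest amounts. Among the 31 members whose 2 libraries summed to 10 counts or more, 30 were on the positive side (all genes: 49.7%), and the median was 0.46 (all genes: 0.00). Intervals of 13 lay above equality and of 0 below it, where 7.29% and 11.6% of all genes with such counts did. Of all 38 members with a count, 2, Cox8b and Atp5md, were at least 2-fold higher with an interval that excludes equality (all genes: 1.81%), and 0 were 2-fold lower (all genes: 2.53%). Both had at least 10 counts. Among genes at that depth 4.26% were called higher and 5.69% lower, so 2 of 31 is close to the share of all genes. The set of all genes is not matched to the members in length. Shorter genes that are not members also had positive medians in this pair (below).

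The DCM pair sets cMyBP-C(t/t) hearts against their controls. Most subunits were slightly lower in tt, while Sdha and Atp5a1 were higher. Among the 31 members at 10 counts or more, 25 lay on the negative side and 6 on the positive (all genes: 48% positive), with a median of -0.13 (all genes: -0.06). Intervals lay above equality for 2 members (Sdha, Atp5a1) and below it for 4 (Uqcrfs1, Cox7a1, Atp5o, Atp5md), against 9.55% and 9.78% of such genes. By the 2-fold rule, 1 of the 38 members with a count was lower, Atp5md, and 0 were higher; the rule called 1.58% of genes lower and 2.7% higher, and 3.51% and 6.04% of those with at least 10 counts. Between NTG and control 0 of 38 members were called (all genes: 3.09%). Among the 30 at 10 counts or more, 21 were higher in control (all genes: 48.8%), with 1 interval above equality (Cox7a1, all genes: 5.14%) and 1 below (Uqcrc1, all genes: 9.12%). With library totals in place of TMM factors these were 27 of 30, since the median of all such genes then moved from -0.02 to 0.11.

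**Figure D3:**
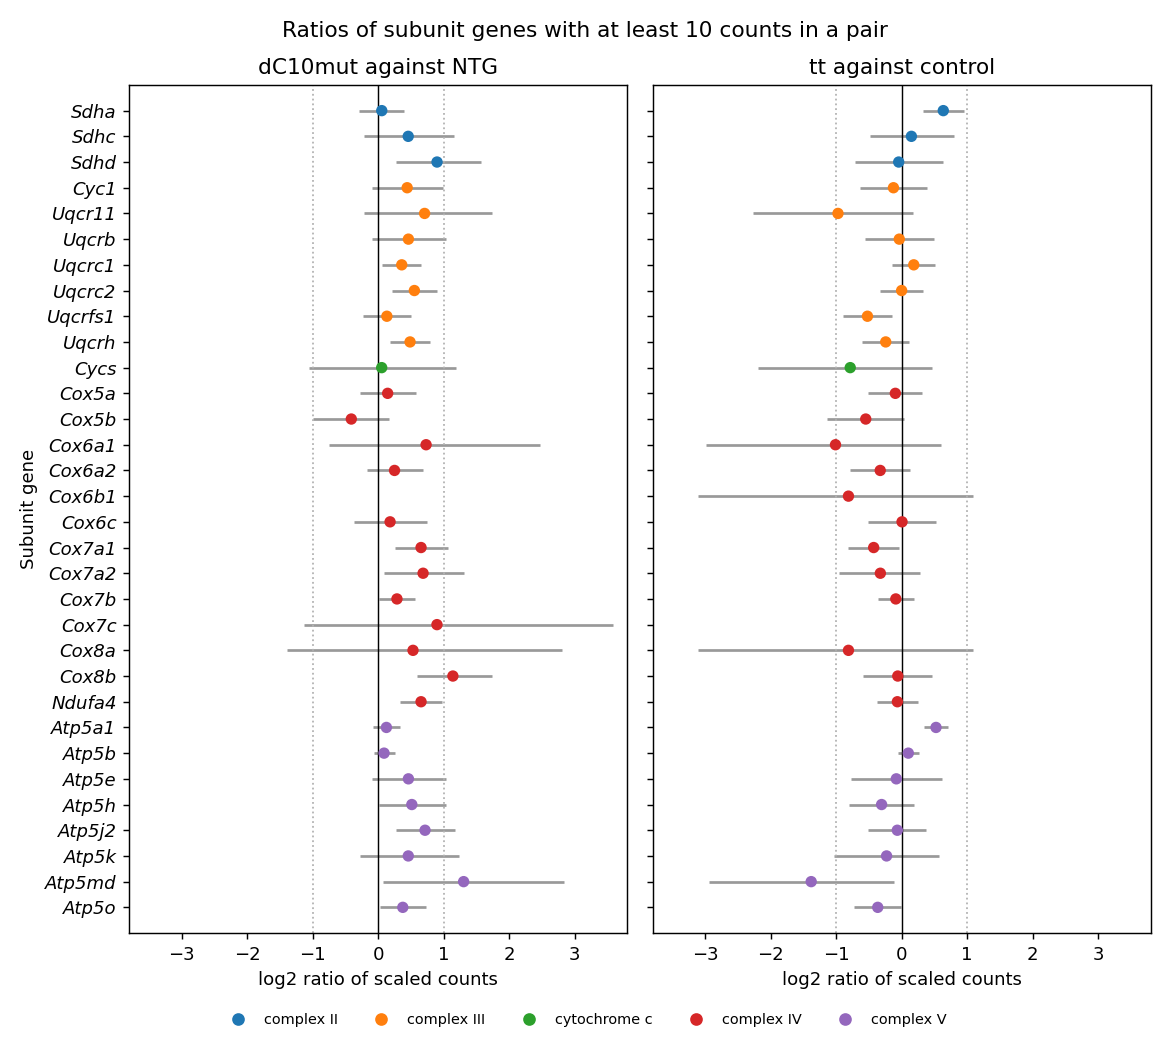
Log2 ratios of scaled counts with exact 95% counting intervals for members with at least 10 counts in the pair, dC10mut against NTG on the left and tt against control on the right, colored by complex. Dotted lines mark 2-fold; 30 of 31 ratios are positive on the left, and 25 of 31 are negative on the right.

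In complex II, Sdha was high in tt and Sdhd in dC10mut. Sdha, the flavoprotein that oxidises succinate (chr13:74322255-74350240, GRCm38), held 131, 159, 136 and 224 counts in the order NTG, dC10mut, control, tt, or 816.8, 849, 747.7 and 1163 CPM. The tt library stands above the other 3. Its log2 ratio to control was 0.64 (0.32 to 0.96), against 0.06 (-0.29 to 0.40) between dC10mut and NTG. Sdhd, a membrane anchor that binds ubiquinone, held 31, 68, 39 and 40 counts, high in dC10mut alone (log2 ratio 0.90, 0.28 to 1.57). The other anchor, Sdhc, held 31, 50, 40 and 47, with both intervals spanning equality. Sdha thus made up 67.9% of the complex II counts in NTG (exact binomial interval 60.8 to 74.4), 57.4% in dC10mut (51.3 to 63.3), 63.3% in control (56.4 to 69.7) and 72% in tt (66.7 to 76.9). The intervals of dC10mut and tt do not overlap, while those within each pair do. Sdhb, at 0 counts, adds nothing to these shares.

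In complex III the core proteins, the Rieske protein and the hinge protein held most of the counts. Uqcrc1, a core protein, held 160, 240, 142 and 171 counts in NTG, dC10mut, control and tt (HCM log2 ratio 0.36, 0.07 to 0.66; DCM 0.19, -0.14 to 0.52). Uqcrc2, the other core protein, held 113, 194, 154 and 163 (0.55, 0.21 to 0.90, and 0.00, -0.33 to 0.33). Both were highest in dC10mut; the row opposite Uqcrc2, Pdzd9, went the other way (-0.36, -0.57 to -0.16). Uqcrh, the hinge protein that meets cytochrome c, held 147, 241, 142 and 127 counts (0.49, 0.19 to 0.80, and -0.24, -0.60 to 0.11). Uqcrfs1, the Rieske iron-sulfur protein (chr13:30540312-30545316), held 117, 150, 144 and 106 and was lower in tt than in control (-0.52, -0.90 to -0.15), with 0.13 (-0.22 to 0.50) in the HCM pair. Cyc1, cytochrome c1, held 49, 78, 67 and 65 counts, and Uqcrb 44, 71, 62 and 64, each highest in dC10mut with intervals that span equality in both pairs. Uqcr11, a small subunit, held 15, 29, 19 and 10 counts, the highest in dC10mut and the lowest in tt, again with both intervals spanning equality. Uqcr10 and Uqcrq, 2 small subunits listed with several transcripts, held at most 4 counts. Cycs, the mobile carrier between complexes III and IV, held 14, 17, 15 and 9 counts, too few to tell the libraries apart (DCM log2 ratio -0.79, -2.19 to 0.47).

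Complex IV held the clearest difference in the HCM pair. Cox8b, the muscle isoform of subunit VIII (chr7:140898942-140900446), held 37, 96, 62 and 63 counts in the same order, or 230.7, 512.6, 340.9 and 327.1 CPM. It was 2.21-fold higher in dC10mut than in NTG (log2 ratio 1.14, 0.59 to 1.74). NTG was the lowest of the 4, and tt and control lay between it and dC10mut (DCM log2 ratio -0.06, -0.59 to 0.47). Cox7a1, the muscle isoform of subunit VIIa (chr7:30184171-30186030), held 83, 153, 131 and 103 counts: it was higher in dC10mut than in NTG (0.66, 0.26 to 1.06) and lower in tt than in control (-0.43, -0.82 to -0.05). Control and NTG themselves differed for this gene (0.48, 0.07 to 0.89). Its ubiquitous counterpart Cox7a2 held 36, 68, 51 and 43 counts, with ratios close to those of Cox7a1 (0.69, 0.09 to 1.32, and -0.33, -0.95 to 0.29). Ndufa4, once assigned to complex I and now counted as a subunit of complex IV, held 127, 234, 168 and 170 counts (0.66, 0.34 to 0.98, in the HCM pair).

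For the remaining complex IV subunits the intervals reached or nearly reached equality. Cox7b, on the X chromosome, held 190, 271, 220 and 219 counts (HCM log2 ratio 0.29, 0.02 to 0.56; DCM -0.09, -0.37 to 0.19). Cox5a, opposite the uncounted gene Gm26631, held 82, 106, 103 and 102 counts and Cox6c 49, 65, 63 and 67, with all intervals spanning equality. Cox5b was the 1 member with at least 10 counts that was lower in dC10mut, at 57, 50, 61 and 44 counts (-0.41, -0.99 to 0.16, and -0.55, -1.15 to 0.03), though neither interval excludes equality. Cox6a2, the muscle isoform of subunit VIa, held 82, 114, 89 and 75 counts (0.25, -0.17 to 0.68, and -0.33, -0.79 to 0.13). An exon of the integrin gene Itgad lies opposite 70 bases of it, and the Itgad row held 45, 121, 95 and 107. Cox6a1 held 6, 12, 10 and 5 counts, with large ratios and intervals that span equality (0.73, -0.75 to 2.48, and -1.01, -2.98 to 0.60). Cox6b1 held 1, 5, 7 and 4 (1.70, -1.06 to 7.66, in the HCM pair), Cox7c 3, 7, 1 and 0 (0.90, -1.13 to 3.58) and Cox8a 4, 7, 7 and 4 (0.53, -1.39 to 2.80), too few to tell the libraries apart.

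The share of the muscle isoform in the counts of its pair overlapped between all 4 libraries within counting error. Cox7a1 made up 69.7% of the counts of Cox7a1 and Cox7a2 in NTG (interval 60.7 to 77.8), 69.2% in dC10mut, 72% in control and 70.5% in tt. The share of Cox8b in its pair was between 89.9% in control (80.2 to 95.8) and 94% in tt (85.4 to 98.3), and that of Cox6a2 between 89.9% in control (82.2 to 95) and 93.8% in tt (86 to 97.9). These shares are of counts and not corrected for length, and they do not depend on the scaling between libraries. Intervals this wide leave room for a shift of several percentage points, and a share near 90% moves little even when the minor isoform, at 4 to 12 counts here, changes much, so the shares of Cox6a2 and Cox8b cannot show stability.

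Among the complex V genes that held counts, the 2 subunits of the catalytic head led. Atp5b, the beta subunit that holds the catalytic sites, held 575, 715, 629 and 715 counts, with ratios near equality in both pairs (0.09, -0.07 to 0.25, and 0.10, -0.05 to 0.26). Atp5a1, the alpha subunit, held 352, 449, 389 and 593 counts, or 2195, 2398, 2139 and 3079 CPM. The tt library stands apart, and its ratio to control was 0.53 (0.34 to 0.71), against 0.13 (-0.08 to 0.33) in the HCM pair. An exon of Haus1 faces 129 bases of Atp5a1, and its row held 0 counts. Atp5o, the OSCP subunit that joins the head to the peripheral stalk (chr16:91925223-91931630), held 116, 176, 151 and 124 counts and lay on either side of equality in the pairs (0.38, 0.03 to 0.73, and -0.37, -0.72 to -0.01).

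Of the smaller subunits of ATP synthase, those with at least 10 counts in a library, Atp5j2, Atp5h, Atp5e, Atp5k and Atp5md, were highest in dC10mut. Atp5j2, subunit f, held 66, 127, 87 and 88 counts (0.72, 0.28 to 1.17, in the HCM pair), and Atp5h, subunit d of the peripheral stalk, 52, 87, 76 and 65 (0.52, 0.01 to 1.04). Atp5e, the epsilon subunit, held 44, 71, 37 and 37, and Atp5k, subunit e, 26, 42, 30 and 27, with all intervals spanning equality. Atp5md, a small subunit also known as Usmg5 or DAPIT that helps ATP synthase form dimers (chr19:47083471-47090647), held 7, 21, 18 and 7 counts. It was at least 2-fold higher in dC10mut (log2 ratio 1.31, 0.07 to 2.84) and at least 2-fold lower in tt (-1.38, -2.95 to -0.12), on few counts. An exon of Taf5, a row with 205, 249, 219 and 185 counts, overlaps 12 bases of it on the other strand. Atp5d held between 2 and 4 counts and Atp5l between 0 and 4. Of the 17 complex V members 11 held a count, so a share of the complex V counts is a share of those genes alone. The 2 head subunits made up 74.5% of them in NTG (71.9 to 76.9), 68.7% in dC10mut (66.4 to 70.9), 71.5% in control (69.1 to 73.8) and 78.7% in tt (76.7 to 80.7). In each pair these intervals do not overlap, with the share lower in dC10mut and higher in tt than in the partner library. In tt the higher share is that of Atp5a1 (DCM log2 ratio 0.53), which has an opposite-strand exon. Atp5b, at 0.10, lay below the ratio of the complex V sum (0.14). The shares of large subunits were chosen after their values were seen. Those of Uqcrc1 and Uqcrc2 in complex III ranged from 40.4% to 47.3%, with overlapping intervals within each pair.

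**Figure D4:**
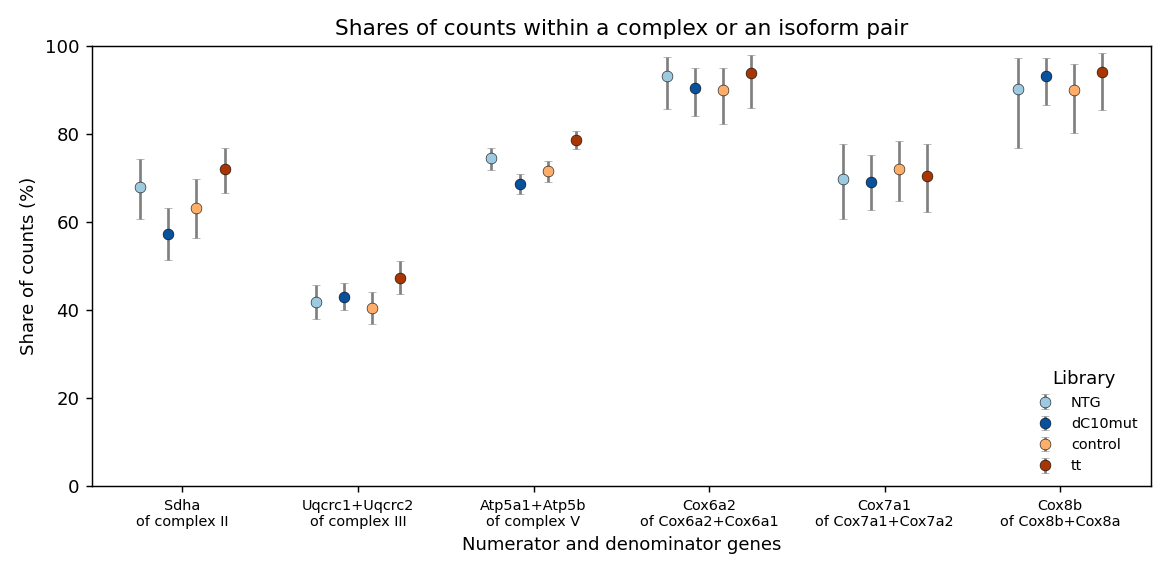
Shares of counts (percent) of the large subunits within complexes II, III and V, and of the muscle isoform within 3 isoform pairs. Each point is 1 library with its exact 95% binomial interval. Members without counts, such as Sdhb and Atp5c1, add nothing to a denominator. The share of Atp5a1 and Atp5b runs from 68.7% in dC10mut to 78.7% in tt, while the isoform shares overlap in all 4 libraries. Between control and tt, Atp5a1 rose more than the complex V sum and Atp5b did not.

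Transcript length moved with these ratios in other genes too, though unevenly in the HCM pair. Among the other genes with at least 10 counts in the pair and no opposite-strand exon, the median log2 ratio of the HCM pair was 0.32 under 500 bases, 0.54 from 500 to 699, 0.26 from 700 to 999, 0.31 from 1000 to 1999 and 0.04 from 2000 bases up. The medians of the members in these classes were 0.66 (5 members), 0.60 (8), 0.15 (2), 0.32 (6) and 0.06 (3). Of the other genes in each class, 60%, 64.9%, 63.6%, 64.3% and 52.3% were positive in the HCM pair. Over all classes 56.2% of the other genes and 23 of 24 members were. In the DCM pair the other genes had medians of -0.52, -0.44, -0.34, -0.11 and 0.07 in the same order, and the members -0.23, -0.32, -0.31, -0.07 and 0.15. In tt the medians of short subunits were thus negative and that of the longest positive, as for other genes of their length. Sdha and Atp5a1, at 2900 and 2471 bases, are among the longest members. The part of length in the differences between subunits was not tested.

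**Figure D5:**
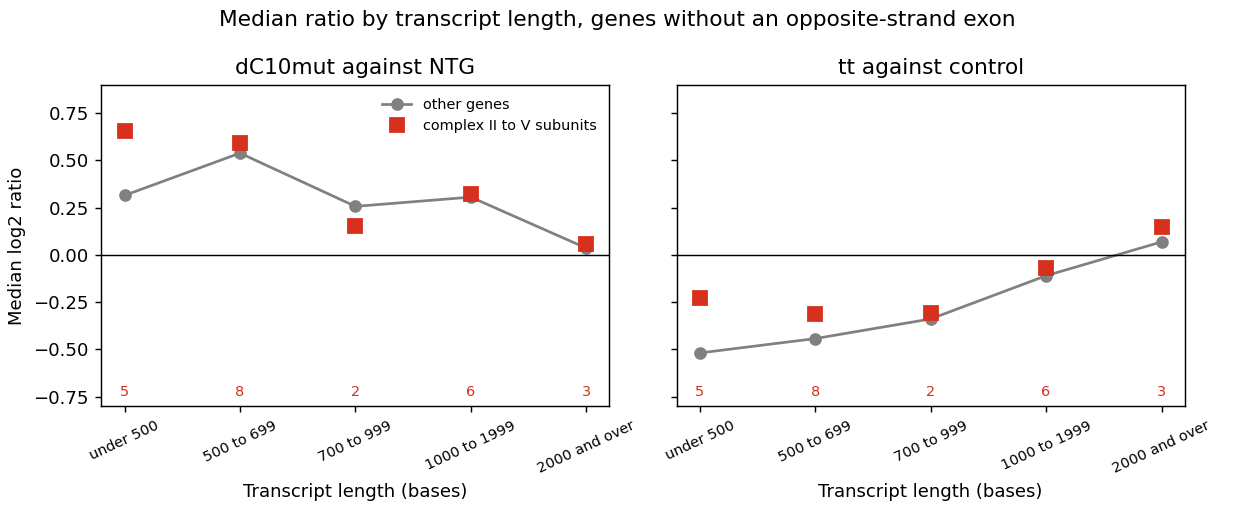
Median log2 ratio by transcript length (bases) for members (squares, with their number below) and for all other genes (line), in genes with at least 10 counts in the pair and no opposite-strand exon. Other genes run from 0.54 at 500 to 699 bases to 0.04 at 2000 bases and over on the left, and from -0.52 under 500 bases to 0.07 on the right.

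The pairs share no library and can be subtracted from each other. The log2 ratio of the DCM pair minus that of the HCM pair was negative for 31 of 37 members with a count in both pairs (all genes: 47.2%), with a median of -0.69 (all genes: 0.14). By a difference of at least 1 with a counting interval that excludes 0, Uqcr11, Cox7a1, Cox7a2, Cox8b and Atp5md were lower in the DCM pair and 0 members higher, where 5.75% of genes were called in either direction. All 5 are among the 30 members with at least 10 counts in each pair, and at that depth 13.2% of genes were called, so this count is close to the share of all genes. The direction is less so: 27 of these 30 members were lower in the DCM pair (all genes at that depth: 48.4%). All genes are not matched to the members in length. In each length class under 2000 bases, other genes also had a positive HCM and a negative DCM median (above). At 500 to 699 bases these were 0.54 and -0.44, against 0.60 and -0.32 for members. The part of length in this direction was not tested. For Cox8b the difference was -1.20 (-1.94 to -0.46) and for Cox7a2 -1.01 (-1.83 to -0.19). Intervals below 0 were found for 13 members (all genes: 3.42%, and 8.27% with at least 10 counts), and above 0 for 2 (all genes: 4.69% and 11.3%), Sdha (0.58, 0.13 to 1.03) and Atp5a1 (0.40, 0.13 to 0.67). With 1 library per group, these intervals compare libraries and not models.

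A difference common to both models was sought with edgeR's quasi-likelihood test over 7360 genes, with the pair as a block. With 1 library per group, its error is judged from how the pairs disagree. A result of 0 calls therefore cannot show that the subunits are unchanged. With Benjamini-Hochberg adjustment 0 of 38 members passed 0.05 (lowest adjusted p = 0.998), where 0.177% of genes did. At an unadjusted p under 0.05 edgeR also found 0 members (4.36% of genes), and DESeq2 called 0 members, with or without adjustment (0% of genes adjusted). In the same edgeR fit, FvB/N libraries against C57BL/6 libraries also gave 0 members after adjustment (0.0543% of genes), as did DESeq2. Unadjusted, 1 member passed in edgeR (2.7% of genes), Cox7c with 3, 7, 1 and 0 counts, and 0 in DESeq2. In the common fit 24 of 38 members were positive, with a median log2 difference of 0.09 (all genes: -0.09). In the strain label fit, which averages both libraries of a label, 8 of 38 were positive, with a median of -0.19 (all genes: -0.05), whereas control alone was above NTG for most members.

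Among other genes of the pathway, 19 of the 22 complex I subunits with at least 10 counts were positive in the HCM pair (all genes: 49.7%). Their median log2 ratio was 0.30 (all genes: -0.001). In the DCM pair 5 of 21 were positive (all genes: 48%), with a median of -0.39 (all genes: -0.055). Of 25 measured in the HCM pair, 4 were called higher (all genes: 1.81%) and 0 lower, among them Ndufb6 (10 and 31 counts in NTG and dC10mut), Ndufa3 (13 and 32) and Ndufc2 (8 and 26); in the DCM pair 0 of 25 were higher and 2 lower (all genes: 1.58%), Ndufb3 (39 and 12 counts in control and tt) and Ndufc1 (21 and 10). Ndufb6 and Ndufa3 have an exon opposite another gene. Each gene called in these pathway lists had at least 10 counts in its pair. Among all genes at that depth the shares called were larger. They were 4.26% higher and 5.69% lower in the HCM pair, and 6.04% and 3.51% in the DCM pair. Of 23 measured assembly factors of complexes II to V, 1 was lower (all genes: 2.53%) and 0 higher in the HCM pair, and 1 of 22 lower (all genes: 1.58%) and 0 higher in the DCM pair. Both times it was Cox20, an assembly factor of complex IV that faces Hnrnpu. In coenzyme Q synthesis 1 of 9 was called higher in the HCM pair (all genes: 1.81%), Coq9 (40 and 103 counts), which has an exon opposite Ciapin1. In the DCM pair 0 of 9 were called (all genes: 4.28% in either direction). Of the regulators of mitochondrial biogenesis, 0 of 8 were called in the HCM pair (all genes: 4.33% in either direction). In the DCM pair 0 of 7 were called (all genes: 4.28%). Ppargc1a, Nrf1 and Ppara were at 0 counts in every library, which cannot be read as absence of expression. Gabpa, a subunit of a factor that binds ETS sites, held 70, 87, 48 and 48 counts in a row that lies opposite Atp5j.

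Markers of cell types moved beside these values. Over all genes, the rule called 1.81% higher and 2.53% lower in the HCM pair, and 2.7% and 1.58% in the DCM pair. Among genes with at least 10 counts in the pair these shares were 4.26% and 5.69%, and 6.04% and 3.51%. Of 10 cardiomyocyte markers, Tnnt2 and Myl3 were at 0 and Myh6 held 1 count in all. Their sum was 28620, 35910, 29410 and 25840 CPM in NTG, dC10mut, control and tt, and 0 markers were called in either pair. Myl2 held 2405 of the 4591 counts in NTG. This sum was highest in dC10mut and lowest in tt, as were complexes III and IV. Complex II was highest in tt and lowest in control. Complex V and the sum of all members were lowest in NTG. Of the 6 markers with at least 10 counts, 4 were positive for dC10mut against NTG and 2 for tt against control. Ryr2 was higher in tt than in control (log2 ratio 0.43, 0.11 to 0.75), while the intervals of Tnni3, Myl2 and Tnnc1 lay below equality. In the HCM pair the intervals of Actc1 (0.41, 0.29 to 0.53) and Tnni3 (0.24, 0.105 to 0.37) lay above equality. So did those of Myl2 (0.33, 0.25 to 0.40) and Tnnc1 (0.45, 0.25 to 0.64). The HCM intervals of Ryr2 and Ttn spanned equality. The 12 endothelial markers summed to 1428, 1266, 1451 and 716.6 CPM, with 2 lower in tt, Kdr and Fabp4. The 10 fibroblast markers summed to 417.7, 421.9, 505.8 and 321.9 CPM, with 1 higher in dC10mut (Dpt) and 1 lower in tt (Col1a2). The 8 smooth muscle and pericyte markers summed to 829.2, 977.2, 978.6 and 794.5 CPM, with 1 higher (Acta2) and 1 lower (Notch3) in dC10mut. The 10 macrophage markers summed to 118.5, 293.7, 280.4 and 98.66 CPM, with Lyz2 higher in dC10mut and lower in tt. Of the 6 atrial markers only Nppa held counts (9, 22, 60 and 16), and it was lower in tt. Of the 8 skeletal muscle markers, Ckm, which heart also expresses, held 290 to 432 counts and Mylpf 1 in NTG. Of the 8 markers of white and brown fat only Cidea held counts, 2 to 7. Counts of 0 in these marker lists cannot be read as absence, since Tnnt2 and Myl3 were also at 0 in these hearts. The part of cell composition in the ratios of the subunits was not tested.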

How the data were processed

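Poly(A) RNA of 4 heart pools was sequenced with a stranded kit, per the labels' protocols. The submitters' processing notes name STAR, HTSeq and the mouse build mm10; their versions and the counting mode and strand used are not given in the sources used here. What the authors deposited is whole-number read counts for 41449 RefSeq transcripts, without normalisation. Symbols came from RefSeq's GRCm38.p6 table (41252 matched) and counts were summed per symbol; lengths and opposite-strand exons came from GENCODE M21 (GRCm38).

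Counts were scaled with TMM factors (edgeR 4.0.16, R 4.3.3). Log2 ratios used a prior count of 0.5, with exact conditional binomial (Clopper-Pearson) intervals; a gene was called at a 2-fold ratio with an interval that excludes equality. The difference between pairs used a normal approximation of counting error. The common fit used genes at 1 CPM in at least 2 libraries; DESeq2 1.42.0, other scalings, filters, priors and gene sets were alternatives. Both rules were tested on simulated data. Named members reached 50 counts in a library, were called, or belonged to the isoform pairs; counts of most other members stand beside them. For other pathway lists up to 3 called genes were named. The members, lists and motifs were chosen with earlier results of these data known. Nothing says whether pooled hearts were separate preparations.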

Additional observations from a re-analysis of the deposited data

Results flagged for a closer look

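In 3 subunits the counting intervals of the pairs lay on opposite sides of equality, higher in dC10mut than in NTG and lower in tt than in control. The log2 ratio of the DCM pair minus that of the HCM pair was -2.68 for Atp5md (interval -4.39 to -0.97), -1.08 for Cox7a1 (-1.62 to -0.55) and -0.74 for Atp5o (-1.22 to -0.26). The same pattern was found in 0.854% of all genes with at least 10 counts in each pair, and in 3 of 30 members. Atp5md, Cox7a1 and Atp5o are short, at 362, 393 and 838 bases, and the share of all genes is not matched in length. Other genes in each length class under 1000 bases also had a positive HCM and a negative DCM median. The part of length in this pattern was not tested. Control was above NTG for Cox7a1 (0.48, 0.07 to 0.89), and for Atp5md the value was 1.13 (-0.15 to 2.68). Atp5md rests on 7 to 21 counts per library, and Atp5md and Atp5o have an exon opposite another gene. With 1 library per group, the difference between the models was not tested beyond counting error.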

How the results depend on the processing

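The counts of called members were the same with library totals, DESeq2 size factors, a minimum of 10 counts, a prior count of 2, the highest transcript per gene, or genes with 1 listed transcript (an alternative chosen after seeing the data): 2 in the HCM pair, 1 in the DCM pair and 0 between the control libraries. With a fold of 2 alone, and no interval, they were 6, 6 and 7 of 38, where 47.7%, 46.5% and 46.1% of all genes were called. Without genes that have an opposite-strand exon, which leaves out Atp5md, they were 1, 0 and 0. The difference between pairs called 5 members, also at 10 counts in each pair, and 4 with 2 added to each count. The common and strain label fits called 0 members under each alternative, for the common fit also without the pair as a block. Without Sdha, complex II stood at 0.70 (HCM; 0.30 with it) and 0.056 (DCM; 0.45 with it) on the log2 scale. With library totals the ratio of all members was 0.41 in the HCM pair, and that of control to NTG was 0.18, against 0.05; for complex V the latter was 0.14, against 0.01. Without Atp5a1, chosen after seeing the data, complex V in the DCM pair turned from 0.14 to -0.037. Some ratios close to equality also changed sign under an alternative. With library totals, those of control to NTG did so for complex II (-0.026 to 0.105) and Atp5b (-0.052 to 0.079), among others. The isoform genes with counts enough for a share are listed with 1 transcript each, so the transcript choice could not change a share. With 1 library per group no library could be left out, and members with few counts have intervals wider than 2-fold.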
